A study of Arabidopsis thaliana with 12 samples.

Results

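The genes described here encode nuclear-encoded proteins of photosystem I, photosystem II and their light-harvesting complexes, measured as RNA in rosettes of *Arabidopsis thaliana*. A locus was taken as a member where its deposited annotation text held "photosystem", "light harvesting complex", "light-harvesting chlorophyll" or "chlorophyll A/B", whatever the case of the letters. This rule used no expression value, and 64 of 33323 loci met it. Classed by their annotation text, they comprised 14 antenna genes of photosystem II, 6 antenna genes of photosystem I, 15 genes of photosystem I subunits, 13 genes of photosystem II subunits, 6 genes of assembly and repair factors and 10 further genes of the PsbP family. All but 1 had enough counts to be tested. AT4G37230, annotated as a relative of the manganese-stabilising protein PsbO, had 0 counts in all 12 libraries and was not tested. Another locus, AT2G07688, is annotated as a pseudogene that resembles the gene of the D1 protein, and it was the least abundant member tested. Whether its few reads came from the chloroplast gene itself was not tested. The rule read annotation text alone, so *PSBS*, the *ELIP* genes and *PSBO1* are not among the members, and the photosystem subunits encoded in the chloroplast were not analysed here.

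The plants were 25 days old, and whole rosettes without roots were harvested. There were 4 genotypes with 3 libraries each, and every library held a pool of about 10 plants from a shared tray. Wild-type plants were Col-0. The labels name the jazD line only, which is known to carry mutations in *JAZ1* to *JAZ7*, *JAZ9*, *JAZ10* and *JAZ13*, and the products of these genes are repressors of jasmonate responses. In cdk8-1 the mutated gene is *CDK8*, which encodes a kinase of the Mediator complex. All of these mutations are together in jazD cdk8-1. The labels name no treatment in any group.

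The photosystems are pigment-protein complexes of the thylakoid membrane that turn light into electron flow. Photosystem II splits water, with the extrinsic proteins PsbO, PsbP and PsbQ around its manganese cluster, and photosystem I passes electrons to ferredoxin. Each is fed by antenna proteins of the chlorophyll a/b-binding family, named LHCB around photosystem II and LHCA around photosystem I, and the LHCB1, LHCB2 and LHCB3 proteins form trimers. Most of these genes are highly expressed in green leaves, and their RNA is known to follow light, the circadian clock and signals from the plastid.

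Several antenna genes exist as near-identical copies, and their coding sequences are shown because reads from them are hard to tell apart. *LHCB1.1*, *LHCB1.2* and *LHCB1.3* lie next to each other on chromosome 1 with no protein-coding gene between them, and each has a single coding exon of 804 bases. The first 120 coding bases follow, from RefSeq on TAIR10.1, at chr1:10475773-10475892 on the minus strand for *LHCB1.1*, chr1:10473127-10473246 on the minus strand for *LHCB1.2* and chr1:10478071-10478190 on the plus strand for *LHCB1.3*. Capitals mark the 9 positions in this stretch, of 47 in the whole coding sequence, at which the 3 copies are not all the same.
LHCB1.1: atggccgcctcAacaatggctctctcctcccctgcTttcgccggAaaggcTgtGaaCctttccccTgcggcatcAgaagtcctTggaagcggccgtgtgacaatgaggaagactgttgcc
LHCB1.2: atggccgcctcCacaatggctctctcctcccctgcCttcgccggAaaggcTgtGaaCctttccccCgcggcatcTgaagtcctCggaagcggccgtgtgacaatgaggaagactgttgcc
LHCB1.3: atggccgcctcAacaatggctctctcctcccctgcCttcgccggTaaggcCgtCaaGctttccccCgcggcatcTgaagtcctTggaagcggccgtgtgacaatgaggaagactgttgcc

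The coding identity between pairs of these copies was 95.6% (*LHCB1.1* and *LHCB1.2*), 96.1% (*LHCB1.1* and *LHCB1.3*) and 96.4% (*LHCB1.2* and *LHCB1.3*). *LHCB1.4* and *LHCB1.5*, which are transcribed away from each other on chromosome 2, were 91.4% identical. *LHCB2.1* and *LHCB2.2*, neighbours elsewhere on chromosome 2, were 96.6% identical, whereas *LHCB2.3* on chromosome 3 was 85.5% identical to *LHCB2.1* and 84.4% identical to *LHCB2.2*. *LHCB4.3* stood further apart, with 65.7% identity to *LHCB4.1* and 66.9% to *LHCB4.2*. The authors' tool divides reads among such copies, so the split within the *LHCB1* genes and between *LHCB2.1* and *LHCB2.2* is uncertain, and family sums are given beside the single copies.

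The 250 bases before the annotated start of 6 members are shown for the 3 *LHCB2* copies, which differ in their values in jazD, and for 3 genes with large changes in the results below. The windows lie at chr2:1824481-1824730 on the minus strand (*LHCB2.1*), chr2:1800473-1800722 on the minus strand (*LHCB2.2*), chr3:10255656-10255905 on the plus strand (*LHCB2.3*), chr2:14524357-14524606 on the plus strand (*LHCB1.4*), chr2:16745378-16745627 on the plus strand (*LHCB4.3*) and chr1:19052583-19052832 on the minus strand (AT1G51400), all on TAIR10.1. Capitals mark the G-box CACGTG, the I-box GATAAG, the CCAATC motif and the CCA1 site AAAAATCT, each searched on both strands.
LHCB2.1: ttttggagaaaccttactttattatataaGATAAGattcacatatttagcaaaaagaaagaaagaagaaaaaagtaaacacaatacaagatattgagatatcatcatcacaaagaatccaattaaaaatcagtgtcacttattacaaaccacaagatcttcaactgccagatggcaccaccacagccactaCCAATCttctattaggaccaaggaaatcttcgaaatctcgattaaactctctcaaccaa
LHCB2.2: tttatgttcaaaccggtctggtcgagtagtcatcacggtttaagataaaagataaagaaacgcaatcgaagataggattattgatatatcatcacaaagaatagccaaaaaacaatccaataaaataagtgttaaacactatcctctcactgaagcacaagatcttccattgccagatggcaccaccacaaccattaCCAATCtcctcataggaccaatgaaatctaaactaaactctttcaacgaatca
LHCB2.3: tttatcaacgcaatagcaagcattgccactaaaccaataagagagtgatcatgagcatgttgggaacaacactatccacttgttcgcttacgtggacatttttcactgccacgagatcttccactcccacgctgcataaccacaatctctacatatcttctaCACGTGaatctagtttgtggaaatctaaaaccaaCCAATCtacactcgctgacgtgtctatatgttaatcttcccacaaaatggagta
LHCB1.4: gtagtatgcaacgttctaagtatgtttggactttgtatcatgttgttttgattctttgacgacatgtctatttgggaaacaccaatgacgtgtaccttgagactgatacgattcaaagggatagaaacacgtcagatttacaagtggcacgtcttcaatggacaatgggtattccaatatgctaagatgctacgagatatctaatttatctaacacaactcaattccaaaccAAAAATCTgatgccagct
LHCB4.3: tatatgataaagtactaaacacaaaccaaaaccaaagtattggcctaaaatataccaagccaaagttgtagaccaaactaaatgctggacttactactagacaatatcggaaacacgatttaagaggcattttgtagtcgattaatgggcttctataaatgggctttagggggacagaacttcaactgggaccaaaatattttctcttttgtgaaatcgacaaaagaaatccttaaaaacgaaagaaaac
AT1G51400: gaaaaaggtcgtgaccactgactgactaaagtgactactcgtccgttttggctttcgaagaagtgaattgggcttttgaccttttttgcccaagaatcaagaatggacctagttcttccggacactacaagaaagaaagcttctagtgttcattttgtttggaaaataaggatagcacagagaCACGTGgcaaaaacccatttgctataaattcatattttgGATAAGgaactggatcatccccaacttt

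All 3 *LHCB2* windows held CCAATC, *LHCB2.1* also held an I-box, and *LHCB2.3* also held a G-box. The *LHCB1.4* window held a CCA1 site, AT1G51400 held a G-box and an I-box, and *LHCB4.3* held none of these 4 motifs. A TATA box (TATAAA) was searched as well and is not capitalised, and it stood in the windows of *LHCB4.3* and AT1G51400 and in 27 of the 62 member windows (43.5%, against 47.3% of all). Identity over the whole window was 62.5% between *LHCB2.1* and *LHCB2.2* and 44.2% between *LHCB2.1* and *LHCB2.3*. Across the 62 members with a window, 14 held a G-box (22.6%), against 6.49% of 27443 protein-coding genes. The windows of the neighbours *PSAH2* and AT1G52220 overlap, and the G-box in the overlap was counted for both. An I-box stood in 13 member windows (21.0% against 12.3% of all) and CCAATC in 13 (21.0% against 10.2%). CCAATC was unevenly spread among the roles, in 7 of 14 photosystem II antenna genes, 3 of 6 photosystem I antenna genes and 0 of 15 genes of photosystem I subunits. The CCA1 site was found in 6 members (9.68% against 6.69%) and the evening element AAAATATCT in 1 (1.61% against 2.36%). These are matches of letters and were not tested for an effect on expression.

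Library totals ran from 17583467 to 21030374 counts. *CDK8* lay between 17.4 and 21.1 CPM (counts scaled to the size of the library) in the 6 libraries with an intact gene and between 2.29 and 3.3 CPM in the 6 libraries that carry cdk8-1. *JAZ6*, which is among the genes mutated in jazD, lay between 23.8 and 36.8 CPM in Col-0 and cdk8-1 and between 1 and 3.29 CPM in the libraries with the jazD mutations. Not every mutated gene was lower in jazD, since *JAZ9* was at 66.7 to 70.2 CPM there against 56.2 to 62.8 in Col-0 and *JAZ10* at 7.58 to 11.7 against 1.61 to 2.4. Summed levels of the leaf markers *RBCS1A*, *RCA* and *CA1* were 30379.1 to 33494.0 CPM in Col-0, 33180.4 to 35871.5 in cdk8-1, 23758.6 to 27368.1 in jazD and 28198.8 to 30320.3 in jazD cdk8-1. In jazD, *CA1* (-0.79, adjusted p = 3.59e-11) and *RCA* (-0.71, adjusted p = 9.2e-11, edgeR) were lower than in Col-0 without overlap. *RBCS1A* was not called there (-0.12). The higher sum in cdk8-1 came from *RBCS1A* (0.24), while *CA1* (-0.18) and *RCA* (-0.14) were called lower in cdk8-1. Each of these cdk8-1 calls rested on single libraries. That of *RBCS1A* was lost without Col-0 replicate 2 (0.18), that of *CA1* without Col-0 replicate 1 (-0.15) or cdk8-1 replicate 3 (-0.15), and that of *RCA* without any Col-0 library, cdk8-1 replicate 1 or 3, or jazD replicate 3 (-0.16 to -0.13). Of the markers of other organs, the 5 floral ones summed to between 0.54 and 2.06 CPM in every library, and 1 of them had enough counts to be tested. The 5 root markers summed to 37.2 to 47 CPM in Col-0, 106.8 to 118.4 in cdk8-1, 364.7 to 440.0 in jazD and 272.1 to 286.2 in jazD cdk8-1, nearly all of it from *PYK10*. The other root marker tested, *NRT2.1*, was also higher in jazD, at 2.48 CPM on average against 0.553 in Col-0 (2.14, adjusted p = 1.58e-05, edgeR). The 4 senescence markers summed to 64.7 to 78.2 CPM in Col-0, 115.9 to 135.9 in cdk8-1, 114.5 to 124.9 in jazD and 198.8 to 212.0 in jazD cdk8-1. Most of that sum was *SEN4*. In jazD relative to Col-0 the 3 tested markers all lay above 0. *SEN4* (0.69) and *ORE1* (2.03) were called higher there, and *SAG13* (0.58) was not called. In the other comparisons the markers went apart. *SEN4* was higher in cdk8-1 (0.92) and in jazD cdk8-1 relative to jazD (0.94), whereas *SAG13* was lower in both (-1.42 and -2.05). *ORE1* was lower in jazD cdk8-1 relative to jazD (-1.56). The part that senescence, leaf makeup or the hour of harvest has in the results below was not tested.

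Together the members took a large share of the RNA, and the share was largest in the wild type. They held 17.88 to 18.79% of all counts in the 3 Col-0 libraries, 15.51 to 16.96% in cdk8-1, 16.34 to 17.45% in jazD and 15.61 to 16.37% in jazD cdk8-1. No mutant library overlapped Col-0. As a share of TPM, a unit that also corrects for transcript length, they held 24.84 to 25.72% in Col-0, 21.98 to 23.34% in cdk8-1, 21.97 to 23.19% in jazD and 22.31 to 23.02% in jazD cdk8-1. In a bulk sample, fewer green cells and less of these RNAs per cell cannot be told apart.

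Levels spanned a wide range within the group. By mean TPM over the 12 libraries, *LHCB1.3* was the most abundant member at 29358.8 TPM, followed by *LHCB1.5* at 13418.0 TPM, *PSBR* at 9429.3 TPM and *LHCB1.2* at 9304.6 TPM. *PSBR* encodes a small subunit near the water-splitting side of photosystem II. Among photosystem I genes, *LHCA1* (7936.8 TPM), *PSAG* (6989.7 TPM) and *LHCA4* (6914.6 TPM) stood highest. Genes of assembly factors were lower, from 34 TPM for *LPA19* to 674.8 TPM for *PSB27*, and the PsbP family ranged from 4.29 to 200.6 TPM. A few members of otherwise abundant classes were also low, namely *LHCB4.3* (49.6 TPM), *PSBP-2* (13.6 TPM), *LHCA5* (176.1 TPM) and *LHCA6* (178.6 TPM).

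Setting jazD against Col-0 shows how these genes differ in plants with the jazD mutations when CDK8 is present. Of 63 members tested, 27 were lower and 1 was higher (edgeR quasi-likelihood test, Benjamini-Hochberg adjusted p of at most 0.05 over all genes tested). Over all 19059 genes, 20.9% were lower and 21.8% were higher. The median log2 fold change of the members was -0.12, against 0.00 for all genes, and 60 of the 63 lay within 0.5 of no change on the log2 scale. Libraries of the 2 genotypes did not overlap for 30 members that were lower and 1 that was higher, against 25.5% and 26% of all genes. Without Col-0 replicate 3 the count of higher members was 0. The count of lower members was 45 in the test on TPM values, in which the all-gene median was -0.06, and 23 when those values were centred on their median. Calls fell in every class, with 5 lower of 14 photosystem II antenna genes, 3 of 6 photosystem I antenna genes, 5 of 15 photosystem I subunits, 6 of 12 photosystem II subunits, 5 of 6 assembly factors and 3 of 10 PsbP family genes.

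**Figure D1:**
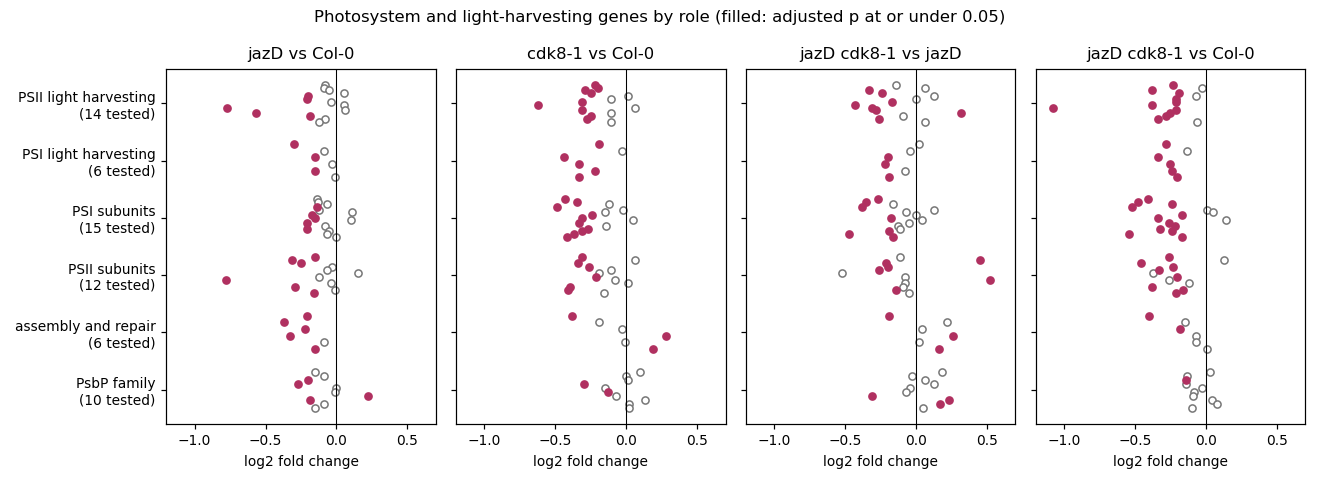
Log2 fold change (horizontal axis) of the 63 tested members, in rows by role, in 4 comparisons of genotypes. Each point is a gene, filled where its edgeR adjusted p was at most 0.05. Filled points lie mostly left of 0, with 27 members lower in jazD, 33 in cdk8-1 and 39 in jazD cdk8-1 than in Col-0.

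The largest falls in jazD were in members of low abundance or in single copies of a family. *PSBP-2* has a shorter coding sequence than *PSBP-1*, a gene of the PsbP protein of the water-splitting complex (378 against 660 bases, 48.5% identity). Whether it yields a working protein was not tested. *PSBP-2* was at 12.2, 9.99 and 8.85 CPM in Col-0 and 5.88, 5.16 and 7.11 CPM in jazD. The groups did not overlap, and it fell by 0.78 ± 0.13 on the log2 scale, or 41.9% (adjusted p = 4.33e-05, edgeR). The abundant *PSBP-1* changed by -0.15 ± 0.05 (adjusted p = 0.0197, edgeR), a call lost without Col-0 replicate 1 (-0.13), Col-0 replicate 3 (-0.14) or jazD replicate 2 (-0.11). *LHCB4.3*, a minor form of the antenna protein CP29 that sits between the photosystem II core and its trimers, was at 59.6, 53.5 and 51.8 CPM in Col-0 and 31.2, 31.2 and 34.5 CPM in jazD. All jazD libraries were below all Col-0 libraries, and the fall was -0.77 ± 0.08 (adjusted p = 5.12e-08, edgeR). The main CP29 genes *LHCB4.1* (-0.08 ± 0.05, adjusted p = 0.245) and *LHCB4.2* (0.06 ± 0.05, adjusted p = 0.366) did not pass the test.

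Among the trimer genes, the calls in jazD were the 3 *LHCB2* genes. *LHCB2.3* was at 2656.7, 2513.3 and 2563.8 CPM in Col-0 and 1865.1, 1554.4 and 1783.0 CPM in jazD. It fell by 0.57 ± 0.06 on the log2 scale (adjusted p = 6.53e-08, edgeR), with no overlap. *LHCB2.1* went from 5131.3, 4873.6 and 5134.9 to 4587.3, 4068.2 and 4450.1 CPM (-0.21 ± 0.06, adjusted p = 0.00591, edgeR), also without overlap. *LHCB2.2* went from 4346.9, 4103.9 and 4427.4 to 3962.4, 3420.5 and 3821.0 CPM (-0.20 ± 0.06, adjusted p = 0.00923, edgeR). Its call was lost without Col-0 replicate 3 (-0.17) or jazD replicate 2 (-0.14). The summed level of the 3 *LHCB2* genes fell from 12135, 11491 and 12126 to 10415, 9043 and 10054 CPM (-0.28 ± 0.06, adjusted p = 0.000574, edgeR). The share of *LHCB2.3* in that sum was 21.6% ± 0.427 (SD, n = 3) in Col-0 and 17.6% ± 0.375 in jazD. By contrast the summed level of the 5 *LHCB1* genes was 60770, 57924 and 59148 CPM in Col-0 and 61162, 56544 and 60334 CPM in jazD, groups that overlap (0.00 ± 0.06, adjusted p = 0.987, edgeR), and no single *LHCB1* gene passed the test. *LHCB3*, the gene of the remaining trimer subunit, changed by -0.12 ± 0.05 (adjusted p = 0.07, edgeR). *LHCB3* lies on chromosome 5 between AT5G44490 and AT5G56910, a stretch with 926 tested genes that holds 23 of the 38 genes called at least 8-fold lower in jazD, as does *Y3IP1*, and the part of that stretch in their values was not tested.

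**Figure D2:**
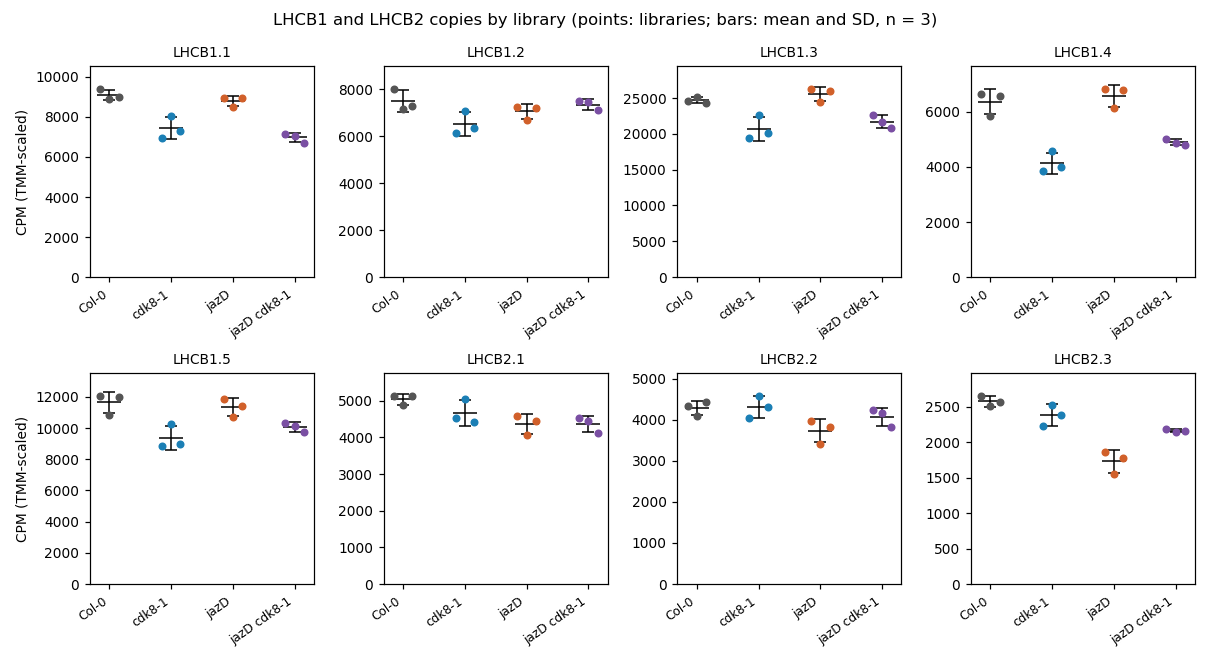
CPM (vertical axis, from 0) of the 5 *LHCB1* and 3 *LHCB2* genes in each library of the 4 genotypes. Points are libraries, bars are means and error bars are SD (n = 3). *LHCB2.3* is lowest in jazD, at 1554.4 to 1865.1 CPM, and *LHCB1.4* is lowest in cdk8-1, at 3837.3 to 4565.6 CPM.

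Genes for assembly and repair of the complexes were also lower in jazD. *PSB28*, whose protein acts in the assembly of photosystem II, was at 80.7, 78.7 and 73.9 CPM in Col-0 and 62.5, 60.4 and 62.4 CPM in jazD. The groups did not overlap (-0.33 ± 0.05, adjusted p = 3.18e-05, edgeR). *LPA19*, a factor for the processing of the D1 protein, was at 18.1, 19.5 and 18.7 CPM in Col-0 and 12.2, 15.5 and 15.8 CPM in jazD (-0.37 ± 0.09, adjusted p = 0.00308, edgeR). *THF1*, a thylakoid formation factor, fell from 660.4, 649.6 and 675.7 to 575.4, 554.8 and 574.5 CPM (-0.22 ± 0.04, adjusted p = 0.000408, edgeR). *PSB27* (-0.21, adjusted p = 0.00488), which acts in photosystem II repair, and *Y3IP1* (-0.15, adjusted p = 0.00748), which acts in photosystem I assembly, were called lower too. *HCF136*, an early photosystem II assembly factor, was the exception in this class at -0.09. Among the subunits, AT1G51400, annotated as the 5 kD protein of photosystem II, was at 698.4, 670.0 and 712.5 CPM in Col-0 and 583.8, 521.5 and 571.4 CPM in jazD (-0.31 ± 0.07, adjusted p = 0.000798, edgeR). *PSBO2*, a gene of the manganese-stabilising protein, fell by 0.29 ± 0.05 on the log2 scale (adjusted p = 6.69e-05, edgeR) and *PSBY*, of a small photosystem II subunit, by 0.25 ± 0.06 (adjusted p = 0.0031, edgeR).

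Of the genes classed with photosystem I, *PSAD-1* and *PSAP* each fell by 0.21 on the log2 scale in jazD (adjusted p = 0.00263 and 0.00498, edgeR). *PSAD-1* encodes the subunit that docks ferredoxin. *PSAP* encodes a thylakoid protein, also called CURT1B, that bends the membrane, and it is counted with the photosystem I subunits by its annotation text alone. *LHCA6*, whose protein links photosystem I to the NDH complex, fell from 167.6, 151.9 and 159.5 to 129.9, 126.9 and 132.0 CPM (-0.30 ± 0.05, adjusted p = 3.97e-05, edgeR). The main antenna genes *LHCA2* (-0.01) and *LHCA4* (-0.03) and the lumenal subunit gene *PSAN* (-0.00) did not pass the test. Calls of *LHCA1*, *LHCA3*, *PSAF*, *PSAG* and *PSAH2*, all between -0.14 and -0.17, each depended on single libraries. Without jazD replicate 2 these changes were -0.11, -0.10, -0.11, -0.13 and -0.12 in the same order, and without Col-0 replicate 3 they were -0.14, -0.14, -0.10, -0.11 and -0.17. Without Col-0 replicate 1 they were -0.15, -0.12, -0.13, -0.15 and -0.16. The calls of *LHCA3*, *PSAF* and *PSAG* were also lost without jazD replicate 3 (-0.14, -0.13 and -0.14) and without jazD cdk8-1 replicate 1 (-0.14, -0.14 and -0.15), a library that enters here only through the shared estimate of the spread.

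In the PsbP family, most of whose proteins lie in the thylakoid lumen, 3 genes fell and AT3G63540 was higher in jazD. AT2G28605 changed by -0.27 (adjusted p = 0.00253), AT1G77090 by -0.20 (adjusted p = 0.00174) and AT4G15510 by -0.19 (adjusted p = 0.00334, edgeR). AT3G63540 was at 70.5, 81.3 and 68.3 CPM in Col-0 and 85.9, 84.8 and 86.1 CPM in jazD, with no overlap (0.22 ± 0.07, adjusted p = 0.00939, edgeR). That call was lost without Col-0 replicate 3 (0.18, adjusted p = 0.0539) and in the test on TPM values (0.15, adjusted p = 0.0722).

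Setting cdk8-1 against Col-0 shows what losing CDK8 does with the JAZ genes intact. It shares its control libraries with the comparison above. Of 63 members, 33 were lower and 2 were higher, where 13.8% of all genes were lower and 11.7% were higher (edgeR). The median was -0.19 against 0.00 for all genes. Groups did not overlap for 32 members that were lower and 3 that were higher, against 19.5% and 18% of all genes. By class, 9 of 14 photosystem II antenna genes, 5 of 6 photosystem I antenna genes, 10 of 15 photosystem I subunits and 6 of 12 photosystem II subunits were lower, but 1 of 6 assembly factors and 2 of 10 PsbP family genes. The test on TPM values gave 29 lower and 4 higher.

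Photosystem I genes had the more negative medians in cdk8-1, at -0.31 for the subunits and -0.27 for the antenna. *PSAF*, the gene of the subunit that binds plastocyanin, was at 4694.5, 4330.1 and 4840.9 CPM in Col-0 and 3085.3, 3467.5 and 3336.9 CPM in cdk8-1. All 3 cdk8-1 libraries were lower, by 28.7% on the fitted means (-0.49 ± 0.05, adjusted p = 6.11e-07, edgeR). *LHCA3* went from 5956.2, 5638.3 and 5775.6 to 4006.4, 4632.0 and 4203.9 CPM (-0.44 ± 0.05, adjusted p = 3.59e-06, edgeR). *PSAD-2*, the second gene of the ferredoxin-docking subunit, went from 2021.6, 1935.0 and 2091.5 to 1424.9, 1678.6 and 1386.9 CPM (-0.43, adjusted p = 1.58e-05, edgeR). Neither gene showed an overlap between the groups. *PSAN* went from 1792.0, 1626.0 and 1741.2 to 1234.1, 1340.4 and 1280.6 CPM (-0.42 ± 0.05, adjusted p = 1.46e-06, edgeR). *LHCA2* (-0.33, adjusted p = 5.97e-05), *LHCA4* (-0.33, adjusted p = 4.03e-05), *PSAE-1* (-0.37, adjusted p = 0.000253) and *PSAO* (-0.35, adjusted p = 0.000248) fell as well. *PSAE-2*, the other gene of the stromal subunit PsaE, was at 600.0, 521.6 and 613.0 CPM in Col-0 and 561.9, 630.6 and 609.0 CPM in cdk8-1, groups that overlap (0.05 ± 0.06, adjusted p = 0.551, edgeR).

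Around photosystem II, all 5 *LHCB1* genes and none of the *LHCB2* genes were called lower in cdk8-1, though the difference between the families was not tested. *LHCB1.4* was at 6649.2, 5834.3 and 6589.5 CPM in Col-0 and 3837.3, 4565.6 and 4008.1 CPM in cdk8-1. The groups were far apart, and the fall of 34.9% was the largest of any member in this comparison (-0.62 ± 0.06, adjusted p = 2.41e-07, edgeR). *LHCB1.5* (-0.31, adjusted p = 0.000547), *LHCB1.1* (-0.29, adjusted p = 0.000304) and *LHCB1.3* (-0.25, adjusted p = 0.00226) fell less. *LHCB1.2* was called at -0.20 (adjusted p = 0.0151, edgeR), but not without Col-0 replicate 1 (-0.14), cdk8-1 replicate 1 (-0.15) or cdk8-1 replicate 3 (-0.18). Its call was also lost in all 4 TPM tests (-0.11, and -0.19 after centring). That of *LHCB1.3* was lost in the TPM tests without a filter (-0.17) and after centring (-0.24). The sum of the 5 genes was 45157, 52587 and 46838 CPM in cdk8-1, all below Col-0 (-0.30 ± 0.06, adjusted p = 0.000622, edgeR), and the share of *LHCB1.4* in it was 8.58% ± 0.0942 (SD, n = 3) against 10.7% ± 0.568. For *LHCB2* the sum was 10804, 12176 and 11112 CPM, which overlaps Col-0 (-0.07 ± 0.06, adjusted p = 0.432, edgeR). The minor antenna genes *LHCB4.1* (-0.28), *LHCB4.2* (-0.31), *LHCB5* (-0.25) and *LHCB6* (-0.22) were called lower, whereas *LHCB4.3* was at 60.5, 59.2 and 52.2 CPM in cdk8-1, values that overlap Col-0 (0.06, adjusted p = 0.598, edgeR).

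On the water-splitting side of photosystem II, *PSBQ-2* (-0.41, adjusted p = 3.16e-06), *PSBO2* (-0.40, adjusted p = 3.8e-06), *PSBP-1* (-0.31, adjusted p = 8.4e-05) and *PSBR* (-0.26, adjusted p = 0.00157, edgeR) fell in cdk8-1. *PSBQ-2* encodes a PsbQ protein of the oxygen-evolving complex. *PSB27* fell from 425.8, 421.1 and 410.7 to 308.3, 354.0 and 301.6 CPM (-0.38, adjusted p = 2.41e-05, edgeR). The members called higher were both assembly factors. *PSB28* was at 93.6, 100.3 and 89.8 CPM in cdk8-1 and at 73.9 to 80.7 CPM in Col-0 (0.28 ± 0.05, adjusted p = 0.000304, edgeR). *Y3IP1* was at 119.1, 122.5 and 120.8 CPM in cdk8-1 and at 103.8 to 108.0 CPM in Col-0 (0.19 ± 0.04, adjusted p = 0.00166, edgeR). The groups did not overlap for either gene, and both calls were kept in every alternative run.

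**Figure D3:**
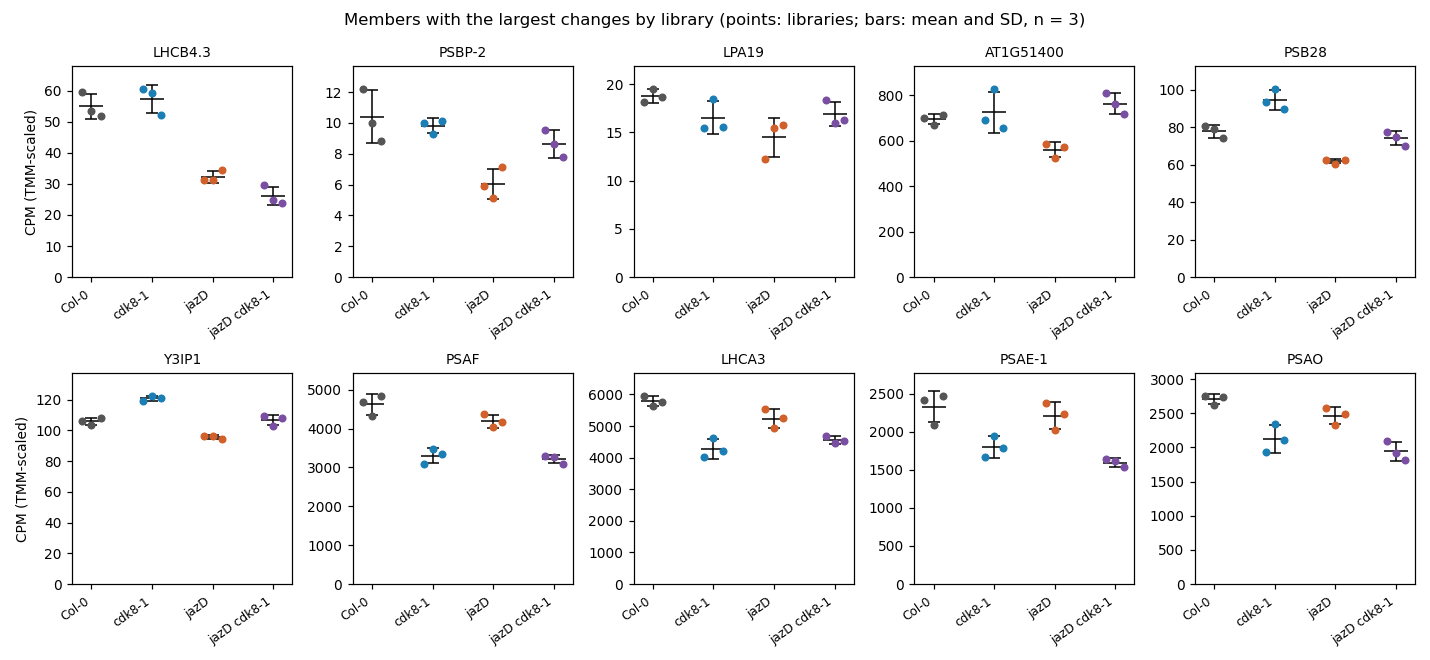
CPM (vertical axes, each from 0) of 10 members in each library of the 4 genotypes, with points for libraries, bars for means and error bars for SD (n = 3). *PSAF* and *LHCA3* are lower in every cdk8-1 library than in Col-0, while *PSBP-2*, *LHCB4.3* and AT1G51400 are lower in every jazD library.

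The falls in cdk8-1 lay among the abundant members. Of 40 members with a mean of at least 1000 TPM, 29 were lower in cdk8-1 and 16 in jazD. Of 23 members below 1000 TPM, 4 were lower and 2 higher in cdk8-1, and 11 were lower and 1 higher in jazD. The medians in cdk8-1 were -0.27 for the abundant and -0.03 for the other members, and in jazD they were -0.10 and -0.15. Across the 63 genes, Spearman's rho between mean TPM and log2 fold change was -0.49 for cdk8-1 and 0.24 for jazD. Genes are not independent replicates, the limit of 1000 TPM was chosen after the values were seen, and the part of RNA level itself was not tested.

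**Figure D4:**
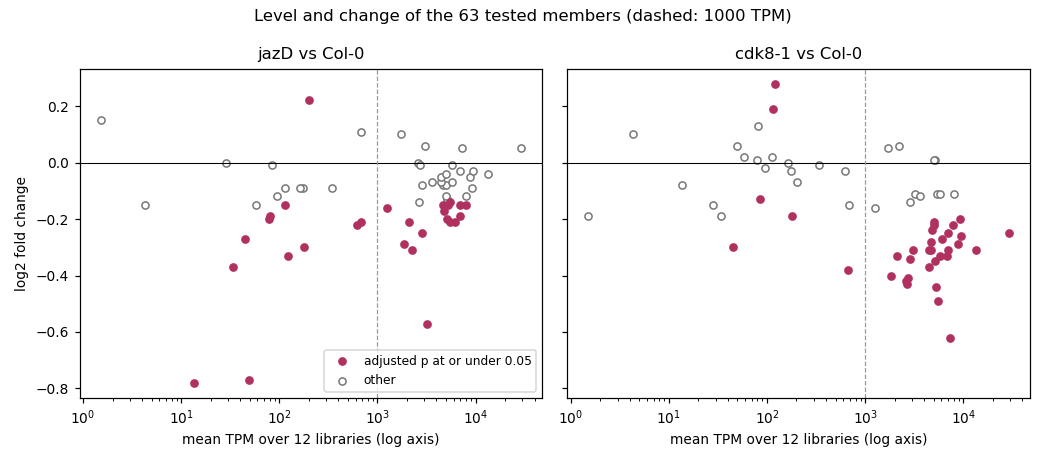
Log2 fold change (vertical axis) against mean TPM over 12 libraries (horizontal axis, log scale) for the 63 tested members, in jazD and in cdk8-1, each relative to Col-0. Filled points passed the edgeR test, and the dashed line marks 1000 TPM. To its right 29 of 40 members are called lower in cdk8-1 and 16 of 40 in jazD.

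The comparison of jazD cdk8-1 with jazD asks what the loss of CDK8 does in plants that carry the jazD mutations. Of 63 members, 23 were lower and 7 were higher, where 19% of all genes were lower and 16.9% were higher (edgeR). The median was -0.08 against 0.00 for all genes. The scaling decided much of this split. In TPM values the median of all genes itself was 0.13, and 22 members were called higher and 7 lower. With TPM values centred on that median the counts were 8 higher and 12 lower. In every one of the 4 TPM tests, 5 of the 23 lower calls (*LHCB1.1*, *LHCB1.4*, *PSAE-1*, *PSAF* and *PSAO*) and all 7 higher calls were kept.

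These 5 members were below jazD in every library of jazD cdk8-1. *PSAE-1* was at 2378.2, 2025.8 and 2229.8 CPM in jazD and 1643.0, 1610.4 and 1531.9 CPM in jazD cdk8-1 (-0.47 ± 0.07, adjusted p = 9.95e-06, edgeR). *LHCB1.4* was at 6830.9, 6129.5 and 6788.4 CPM in jazD and 5016.0, 4875.0 and 4790.1 CPM in jazD cdk8-1 (-0.43 ± 0.06, adjusted p = 1.76e-05, edgeR). *PSAF* was at 4368.0, 4034.1 and 4172.1 CPM in jazD and 3281.3, 3277.5 and 3089.7 CPM in jazD cdk8-1 (-0.38, adjusted p = 8.57e-06, edgeR). *PSAO*, whose small protein helps to bind antenna trimers to photosystem I, changed by -0.35 (adjusted p = 0.000168, edgeR), and *LHCB1.1* by -0.33 ± 0.05 (adjusted p = 3.94e-05, edgeR). The *LHCB1* sum was 52632, 51258 and 49123 CPM in jazD cdk8-1, below each jazD library (-0.22 ± 0.06, adjusted p = 0.00599, edgeR), and in summed TPM the difference was -0.06.

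The 7 members that rose in jazD cdk8-1 relative to jazD belong to photosystem II, to the assembly of both photosystems and to the PsbP family, and their jazD libraries are the same as those set against Col-0 above. AT1G51400 was at 808.2, 760.2 and 716.4 CPM in jazD cdk8-1, above its jazD values by 36.3% (0.45 ± 0.07, adjusted p = 2.19e-05, edgeR). *PSBP-2* was at 9.57, 8.61 and 7.78 CPM (0.52 ± 0.13, adjusted p = 0.00387, edgeR). *LHCB2.3* was at 2192.4, 2145.8 and 2154.6 CPM (0.32 ± 0.06, adjusted p = 0.000174, edgeR). None of these overlapped jazD. Set beside Col-0, AT1G51400 lay above all 3 libraries, *PSBP-2* overlapped them and *LHCB2.3* lay below them. *PSB28* (0.26, adjusted p = 0.00059), AT4G15510 (0.23, adjusted p = 0.000898), AT5G11450 (0.17, adjusted p = 0.0101) and *Y3IP1* (0.16, adjusted p = 0.00537) completed the list. The call of AT5G11450 was lost without jazD replicate 2 (0.13, adjusted p = 0.0802) or jazD replicate 3 (0.15, adjusted p = 0.0513). *LHCB4.3* went the other way, to 29.5, 24.9 and 23.9 CPM against 31.2 to 34.5 CPM in jazD (-0.31 ± 0.08, adjusted p = 0.00532, edgeR), a call not made in TPM values (-0.16, adjusted p = 0.111).

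The comparisons of cdk8-1 with Col-0 and of jazD cdk8-1 with jazD have no library in common. Members lower in both numbered 20, which is 60.6% of those lower in cdk8-1 and 87% of those lower in jazD cdk8-1. Over all genes tested the corresponding shares were 57.4% and 41.7%. These shares start from unlike rates, since 52.4% of members and 13.8% of all genes were lower in cdk8-1. In jazD cdk8-1 relative to jazD the rates were 36.5% and 19%. The overlap also depends on the scaling, because 5 of the 23 members lower in jazD cdk8-1 were kept in all 4 TPM tests. The 2 members higher in cdk8-1, *PSB28* and *Y3IP1*, were also higher in jazD cdk8-1 than in jazD.

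Relative to Col-0, jazD cdk8-1 had 39 of 63 members lower and 0 higher, where 16.1% of all genes were lower and 16.3% higher (edgeR). At an unadjusted p under 0.05 1 member was higher, and DESeq2 called 0 and the TPM test 5. The median was -0.21. *LHCB4.3* was the lowest, at 23.9 to 29.5 CPM against 51.8 to 59.6 CPM in Col-0 (-1.08 ± 0.08, adjusted p = 6.83e-10, edgeR). *PSAE-1* (-0.54, adjusted p = 1.83e-06) and *PSAF* (-0.52, adjusted p = 1.4e-07) followed. *PSB28* and *Y3IP1*, at -0.07 and 0.01, did not pass the test.

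The interaction asks whether the cdk8-1 effect differed between plants with intact JAZ genes and jazD. A positive value means a cdk8-1 effect that was more positive in jazD. Of 63 members, 13 had a positive and 1 a negative interaction, against 8.16% and 8.39% of all genes (edgeR), with a median of 0.11. The positive count was 7 without Col-0 replicate 1, 6 without Col-0 replicate 3, 8 without cdk8-1 replicate 1 or 3, 6 without jazD replicate 2, 5 without jazD cdk8-1 replicate 1 and 8 without jazD cdk8-1 replicate 2. It was 29 in TPM values, 17 in TPM values without a filter and 10 after centring. The calls that held when any single library was left out, and in every other alternative run, were *LHCB2.3*, *PSBO2*, AT1G51400 and AT2G28605. For *LHCB2.3* the interaction was 0.43 ± 0.08 (adjusted p = 0.00083, edgeR), from -0.11 with intact JAZ genes to 0.32 in jazD. For AT1G51400 it was 0.39 ± 0.10 (adjusted p = 0.00751, edgeR), from 0.06 to 0.45. For AT2G28605 it was 0.43 ± 0.10 (adjusted p = 0.00301, edgeR), from -0.30 to 0.13, and for *PSBO2* it was 0.31 ± 0.07 (adjusted p = 0.00404, edgeR), from -0.40 to -0.09. The negative call, *LHCB4.3* (-0.37 ± 0.11, adjusted p = 0.0238, edgeR), was lost without any 1 of 7 libraries, among them jazD cdk8-1 replicate 3 (-0.31, adjusted p = 0.0832), and in all 4 TPM tests. *LHCB1.4* (0.19, adjusted p = 0.163, from -0.62 to -0.43) and *PSB28* (-0.02, adjusted p = 0.899, from 0.28 to 0.26) did not pass the test.

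Genes that act beside the photosystems are given from lists drawn up by role. Earlier results of these data were already known at that point, so the list counts are not an independent test. Chlorophyll synthesis was lower in both single lines. In jazD 12 of 16 genes were lower and 2 higher (median -0.29), against 20.9% and 21.8% of all genes. In cdk8-1 9 were lower and 1 higher (median -0.27), against 13.8% and 11.7% of all genes. *HEMA1*, the glutamyl-tRNA reductase gene at the entry to the pathway, was at 799.5, 794.5 and 805.5 CPM in Col-0, 532.4, 505.6 and 524.4 in jazD, 557.8, 566.9 and 579.6 in cdk8-1, with jazD cdk8-1 at 547.9, 546.7 and 525.0. All mutant libraries were below Col-0, and its interaction was 0.55 ± 0.06 (adjusted p = 5.56e-07, edgeR). *CHLH*, a subunit gene of magnesium chelatase, changed by -0.65 in jazD and -0.40 in cdk8-1, and *CAO*, which makes chlorophyll b, by -0.76 and -0.31. *PORA*, a protochlorophyllide reductase gene, fell from 71.3, 56 and 75.1 to 12.4, 10.6 and 12.3 CPM in jazD (-2.53 ± 0.12, adjusted p = 1.35e-13, edgeR) and lies in the chromosome 5 stretch named above. Over the list, 13 of 16 genes were called with a positive interaction and 0 with a negative one (median 0.35), against 8.16% and 8.39% of all genes (edgeR).

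**Figure D5:**
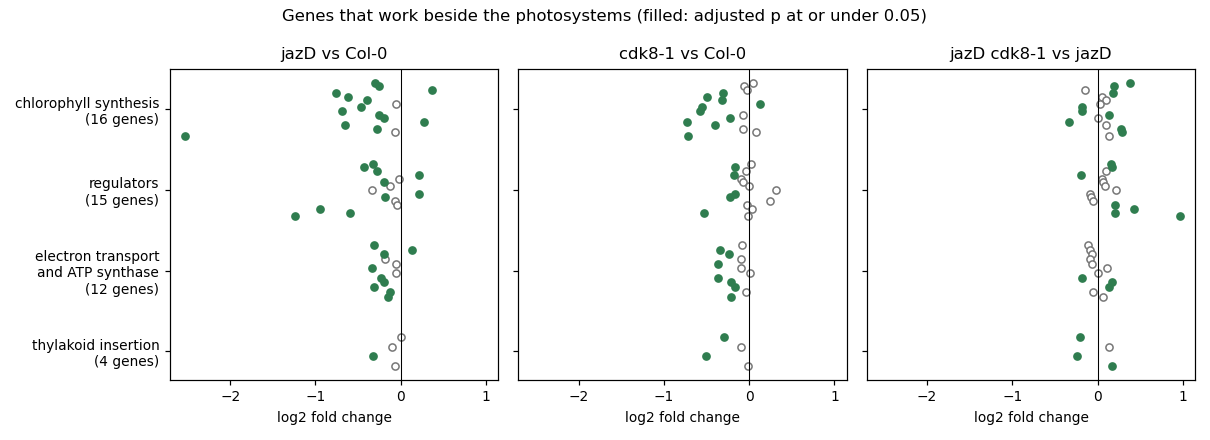
Log2 fold change (horizontal axis) of the genes of 4 neighbouring pathways in 3 comparisons, with chlorophyll synthesis (16 genes), regulators (15), electron transport and ATP synthase (12) and thylakoid insertion (4). Filled points passed the edgeR test. Chlorophyll synthesis shows 12 genes called lower in jazD and 9 in cdk8-1, where 20.9% and 13.8% of all genes were lower.

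Among 15 regulators of chloroplast genes, 8 were lower and 2 higher in jazD, against 20.9% and 21.8% of all genes. In cdk8-1 5 were lower, against 13.8% of all genes. In jazD cdk8-1 relative to jazD 6 were higher and 1 lower, against 16.9% and 19% of all genes. *GNC*, a GATA factor that promotes chloroplast development, was at 42.9, 47.8 and 49.2 CPM in Col-0, 20, 18.8 and 20.3 in jazD, 47.8, 47.9 and 43.6 in cdk8-1, with jazD cdk8-1 at 38.2, 39.5 and 38.1. All jazD libraries were below all others (-1.24 ± 0.06, adjusted p = 1.19e-12, and 0.97 ± 0.07 in jazD cdk8-1 relative to jazD, adjusted p = 1.82e-10, edgeR), and it lies in the same chromosome 5 stretch. *GLK2*, a factor that activates photosystem and chlorophyll genes, was at 189.4, 196.1 and 190.0 CPM in Col-0, 134.8, 120.5 and 124.6 in jazD, 129.4, 137.2 and 132.3 in cdk8-1, with jazD cdk8-1 at 150.8, 149.7 and 140.0 (interaction 0.74 ± 0.07, adjusted p = 8.44e-08, edgeR). Its relative *GLK1* rose by 0.22 in jazD and fell by 0.18 on the log2 scale in cdk8-1. *SIG5*, a sigma factor gene for light-dependent transcription in the plastid, changed by -0.95 ± 0.07 in jazD (adjusted p = 9.73e-10, edgeR) and by 0.03 in cdk8-1 (adjusted p = 0.825).

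Electron transport and ATP synthase genes gave 8 lower and 1 higher of 12 in jazD, against 20.9% and 21.8% of all genes. In cdk8-1 they gave 7 lower, against 13.8% of all genes. *ATPC1*, the gamma subunit gene of the chloroplast ATP synthase, changed by -0.23 and -0.36, and *PGR5*, of cyclic electron flow, by -0.34 and -0.09, the latter without a call. Of the 4 genes for insertion of antenna proteins into the thylakoid, *CPSRP43* fell by 0.32 on the log2 scale in jazD and 0.50 in cdk8-1, and *ALB3*, the translocase gene, was at -0.00 and -0.29, the latter called (adjusted p = 3.74e-05, edgeR).

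The photoprotection genes *PSBS* and *ELIP1*, which are no members, showed other patterns. *PSBS*, needed for the dissipation of excess light, was at 1346.2, 1318.2 and 1286.0 CPM in Col-0, 1008.1, 986.4 and 1015.2 in jazD, 1365.2, 1475.9 and 1346.8 in cdk8-1, with jazD cdk8-1 at 1239.0, 1251.1 and 1164.9. It fell in jazD by 0.39 on the log2 scale (adjusted p = 4.27e-07, edgeR) and was 0.08 in cdk8-1 without a call. *ELIP1*, an early light-induced protein gene, was at 6.28, 5.27 and 5.2 CPM in Col-0, 3.92, 3.59 and 3.38 in jazD, 14.5, 13.7 and 12.8 in cdk8-1, with jazD cdk8-1 at 5.12, 4.93 and 4.59. All cdk8-1 libraries were above all others (1.29 ± 0.10 relative to Col-0, adjusted p = 4.15e-09, edgeR). Its relative *ELIP2*, at 1.73 CPM on average in Col-0, was not called in cdk8-1 (0.69, adjusted p = 0.0786, edgeR). *ELIP2* was lower in jazD (-1.03, adjusted p = 0.0222, edgeR), a call lost without Col-0 replicate 1 (-0.89), Col-0 replicate 3 (-0.73) or jazD replicate 3 (-0.88).

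Clock genes moved along with the genotypes, and the hour of harvest is not given in the sources used here. In the list of 10 clock genes, 5 were higher and 5 lower in jazD, against 21.8% and 20.9% of all genes. In cdk8-1 2 were higher and 6 lower, against 11.7% and 13.8% of all genes. In jazD cdk8-1 relative to jazD 4 were higher and 5 lower, against 16.9% and 19% of all genes. The evening gene *LUX* was at 10.3 to 12.4 CPM in Col-0, 7.34 to 8.18 in cdk8-1, 31.5 to 36.5 in jazD and 16.4 to 17.6 in jazD cdk8-1, with no overlap between any pair of groups. In jazD relative to Col-0, *TOC1* was higher as well (1.11, adjusted p = 1.11e-11, edgeR). *PRR9* (-1.77, adjusted p = 2.19e-14) and *CCA1* (-1.58, adjusted p = 1.58e-13, edgeR) were lower there. The part of the clock in the members' values was not tested.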

How the data were processed

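RNA was sequenced from 12 libraries, 3 pools of rosettes for each of 4 genotypes. The authors deposited expected counts for each gene, which RSEM 1.2.25 estimated with TAIR10 as the reference (per the submitters' processing notes). The authors also deposited TPM values from the same tool, which served for levels between genes and as an alternative scaling. No aligner, read length, strand protocol or hour of harvest is given in the sources used here. Of the expected counts 96.58% were whole, and all were rounded.

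The main test was that of edgeR 4.0.16, run in R 4.3.3. The filter filterByExpr left 19059 genes, TMM factors ran from 0.9543 to 1.0557, and the 12 libraries entered 1 quasi-likelihood model with a mean for each genotype, which leaves 8 residual degrees of freedom (biological coefficient of variation 5.1%). Tests were 2-sided, calls were made at 0.05 after Benjamini-Hochberg adjustment across the 19059 genes, and no fold threshold was used. The interaction subtracts the cdk8-1 effect in plants with intact JAZ genes from the cdk8-1 effect in jazD. A standard error is the size of the log2 fold change divided by the square root of its F statistic. TPM values were tested as log2(TPM + 1) and log2(TPM + 0.1) with limma 3.58.1, and DESeq2 1.42.0 was an alternative to edgeR. The edgeR test was tested on simulated data. Replicates of a genotype differed by more than sampling noise, so none was treated as a repeat deposit.

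Genes are named by rule. It takes up to 5 largest rises and 5 largest falls among called members whose average log2 CPM reached 1. This was done for jazD and cdk8-1 relative to Col-0, jazD cdk8-1 relative to jazD and the interaction, but not for jazD cdk8-1 relative to Col-0. The rule also takes the 3 members of each role with the highest TPM, the LHCB1, LHCB2 and LHCB3 genes, PSBS and the ELIP genes. From each list it takes up to 4 genes with the smallest p in jazD. Other members are named with their values where a class is described, and GLK1 and JAZ6 were chosen after their values were seen. The members and lists were chosen with earlier results of these data known, and the role classes were drawn up after the values were seen. Sequences are from RefSeq on TAIR10.1, matched by locus for 64 of 64 members. Motifs were sought in the 250 bases before each annotated start, except for AT2G07688 and AT3G63540, which are not used there.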

Additional observations from a re-analysis of the deposited data

Results flagged for a closer look

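The following results stand out because the effect of cdk8-1 differed between plants with intact JAZ genes and jazD, by the interaction term of the edgeR fit. Among photosystem II genes, the interaction (log2, a positive value meaning a more positive cdk8-1 effect in jazD) was 0.60 for *PSBP-2*, 0.43 for *LHCB2.3*, 0.39 for AT1G51400, 0.31 for *PSBO2*, 0.27 for *PSBQ-2*, 0.26 for *LHCB1.2* and -0.37 for *LHCB4.3*. Among genes classed with photosystem I it was 0.28 for *PSAP*, 0.26 for *PSAN*, 0.24 for *PSAH2*, 0.24 for *LHCA3* and 0.21 for *LHCA6*. The assembly factor *LPA19* gave 0.41 and the PsbP family gene AT2G28605 gave 0.43. Outside the members, *PSBS* gave 0.20 and *ELIP1* gave -0.87.

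Of the 13 positive calls among members, 4 were kept when any single library was left out, namely *LHCB2.3*, *PSBO2*, AT1G51400 and AT2G28605. The negative call of *LHCB4.3* was not, and the call of *PSBS* was lost without any 1 of 10 libraries (0.17 to 0.20, adjusted p = 0.0602 to 0.117, edgeR).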

How the results depend on the processing

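In the tests on TPM values (pseudocount 1, pseudocount 0.1, and pseudocount 1 without a filter), jazD relative to Col-0 gave 0, 0 and 0 higher and 45, 45 and 42 lower. In the same order, cdk8-1 relative to Col-0 gave 4, 4 and 4 higher and 29, 29 and 25 lower, jazD cdk8-1 relative to jazD gave 22, 22 and 22 higher and 7, 7 and 5 lower, jazD cdk8-1 relative to Col-0 gave 5, 5 and 4 higher and 32, 32 and 26 lower, and the interaction gave 29, 29 and 17 higher and 0, 0 and 0 lower. TPM values centred on their median, an alternative chosen after seeing the data, gave 12 lower for jazD cdk8-1 relative to jazD and 0 lower for the interaction. With no filter on low counts, jazD cdk8-1 relative to Col-0 gave 1 higher and the interaction gave 2 lower. AT1G76450 (0.12) and *LHCB2.1* (0.15) in jazD cdk8-1 relative to jazD had the other sign in the uncentred TPM tests, without a call in edgeR (-0.03 and -0.00). The cause was not tested. With 1 library left out, members ranged from 0 to 1 higher and 19 to 32 lower in jazD relative to Col-0, 2 to 3 and 29 to 38 in cdk8-1 relative to Col-0, 6 to 9 and 16 to 29 in jazD cdk8-1 relative to jazD, 0 to 1 and 32 to 40 in jazD cdk8-1 relative to Col-0, and 5 to 16 and 0 to 1 in the interaction. The higher count in jazD cdk8-1 relative to Col-0 was 1 without Col-0 replicate 3 or cdk8-1 replicate 2, and no member had a negative interaction without Col-0 replicate 3, cdk8-1 replicate 2, jazD replicate 3, or jazD cdk8-1 replicate 2 or 3. Same-numbered libraries did not deviate together, so numbers were not treated as pairs. With the replicate number as a block, the counts (higher and lower) were 1 and 24, 2 and 33, 7 and 22, 0 and 39, and 9 and 1 in the order above. These totals cover the genes named by rule. Over settings other than left-out libraries, 2775 values kept their side of the threshold, 147 lost a call and 137 gained a call. A further 6 changed sign with a call in the main or the alternative run. Changes of sign without a call in either run are counted among the values kept. With a library left out, 3934 kept their side of the threshold, 169 lost a call and 37 gained a call. Leaving out organelle genes was planned and not run, since the tables used here held 0 such loci.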
